A study of Mus musculus with 5 samples.

Results

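Translation initiation and elongation factors are the proteins that bring the ribosome to a messenger RNA, find the start codon and move the ribosome along the coding sequence. Their genes were taken by name: the symbols that begin with Eif1, Eif2, Eif3, Eif4, Eif5, Eif6, Eef1 or Eef2, leaving out Eif2ak2, an interferon-induced kinase gene. This gave 67 of the 19726 gene symbols listed, all annotated as protein coding in GENCODE vM21. Of these, 51 encode the factors themselves and 16 encode regulators, modifying enzymes and proteins with other roles. The libraries came from CD4+ T cells, the lymphocytes that carry the CD4 co-receptor, of 7 weeks old wild-type mice of the strain C57/Bl6j. The cells of one group were taken from spleen (3 libraries, replicates 1, 2 and 3), and those of the other from tumors of MC38, a transplantable mouse colon carcinoma line (2 libraries, replicates 2 and 3). The labels do not say how the cells were isolated or from how many animals. A p-value below therefore measures only how these 5 libraries vary, and that variation may be technical. The spread it uses was pooled mostly over all genes tested, so it says little about a single gene's own spread.

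In the first step of translation, eIF2 brings the initiator transfer RNA to the small ribosomal subunit, where eIF1, eIF1A, eIF3 and eIF5 hold the scanning complex together and select the start codon. The eIF4 proteins bind the cap of the message (eIF4E), open its structure (eIF4A, with eIF4B and eIF4H) and join the pieces (eIF4G), after which eIF5B joins the large subunit. During elongation eEF1A delivers each aminoacyl transfer RNA, eEF1B reloads eEF1A with GTP and eEF2 moves the ribosome by a codon. Naive T cells are known for low protein synthesis, which increases when they are activated. Many messages of ribosomal proteins and elongation factors start with a 5′ terminal oligopyrimidine (TOP) tract, which places their translation under the control of the kinase complex mTORC1.

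Values are in TPM, transcripts relative to all transcripts of a library, a relative abundance corrected for transcript length, given below in order of replicate number. TPM keep no read depth, so counting error is unknown. The listed genes summed to 268986 to 359532 TPM per spleen library, against 569309 to 596116 TPM per tumor library, so directions were examined under 6 scalings of the libraries. The median log2 change of all 12979 genes tested was 0.23 as deposited and -0.052 by median ratios. It was -0.45 by upper quartiles, -0.54 after setting the totals equal and -0.60 when the 20 most abundant genes did not count towards the totals. A scaling to genes of T cell identity moved it to 2.07. Cd4 was at 97.7 to 131 TPM across spleen libraries and 26.8 to 27.2 TPM in tumor, and the 11 T cell identity genes, all called lower, summed to 898 to 1187 and 222 to 291 TPM. The 16 macrophage and monocyte markers, none at 0 in any library, summed to 67.2 to 86.2 TPM across spleen libraries, against 7045 to 7759 TPM across tumor libraries, and all 15 of them that were tested were called higher. The part of these cells in the results below was not tested. In bulk samples, fewer cells of a type and less RNA per cell cannot be told apart. As a level of background, the 95th percentile of 1092 olfactory receptor genes, a family of the nose, was 7.60 to 15.5 TPM per library. Of the 67 factor genes, 35 lay above it in all 5 libraries and 13 below it in all 5. Eif1ax, Eif2ak1, Eif2b2, Eif3j1, Eif3j2 and Eif4e3 lay below it in the spleen libraries and above it in the tumor libraries.

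The make-up of the factor messages differed between the tissues. The groups of eIF4, of eIF1 with eIF1A and of eIF5 with eIF6 held a larger part of them in tumor. Elongation factors held a smaller part, and single genes of a group could go the other way, as Eif4a2 did. Of the 67 genes, 65 reached the mean of 1 TPM needed for the test. As deposited, limma called 29 of them higher in tumor and 6 lower (adjusted p under 0.05). Among all genes tested 59.0% were called, 40.9% higher and 18.1% lower, so the 29 of 65 are close to the background share and the 6 of 65 are below it, a difference that was not tested. The members' median log2 change was 0.33. In 35 members both tumor libraries lay above the spleen libraries and in 12 below, against 46.6% and 23.8% of all genes. With log2(TPM + 1) as the scale, 14 members rose and none fell by 2-fold or more, against 26.4% and 5.15% of all genes. In TPM itself, the tumor mean was 0.344 of the spleen mean for Eef2k and 0.482 for Eif4ebp2, both called lower. A set of 9 genes rose under all 6 scalings and every other alternative: Eif1, Eif1a, Eif2s2, Eif4a1, Eif4e, Eif4e2, Eif5, Eif5a and Eif6. These same 9 of 65 were the members called higher with equal totals, where 21.0% of all genes were. The share of all genes that rose under all 6 was not computed. No member fell under all 6, since the scaling to T cell identity turned every negative change among the members positive. Under the other 5 scalings, Eef1b2, Eef2k, Eef2kmt, Eif2d, Eif3e and Eif4ebp2 were called lower throughout. Of these, Eef2k and Eef2kmt lay below the olfactory level in every library, and Eif2d and Eif4ebp2 each lay above it in 1 library only.

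**Figure D1:**
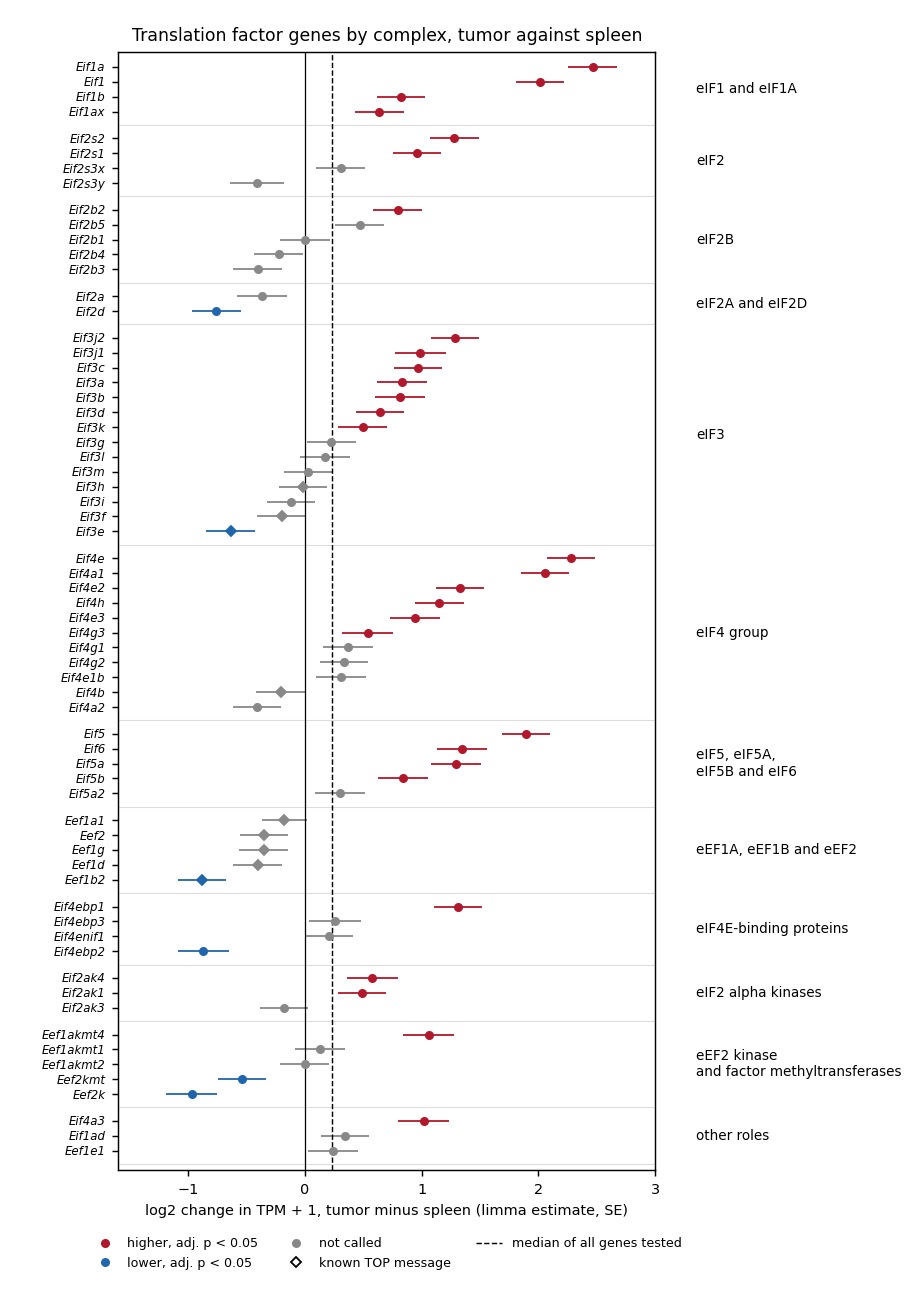
Log2 change in TPM + 1 (tumor minus spleen, limma estimate with its SE) of the 65 tested genes, grouped by factor complex, in the deposited scaling. Red points were called higher, blue points lower and grey points not called. Diamonds mark known TOP messages. Eif1a, Eif4e, Eif4a1, Eif1 and Eif5 lie farthest to the right, and the diamonds all lie to the left of the dashed line at the median of all genes tested (0.23).

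Shares of the summed TPM of the 67 genes do not depend on how libraries are scaled to each other. Elongation factors eEF1A, eEF1B and eEF2 made up 57.1, 57.1 and 56.7% of the sum in spleen replicates 1, 2 and 3 and 40.4 and 39.7% in tumor replicates 2 and 3. Most of this was Eef1a1 alone, at 42.8, 42.1 and 42.4% and 32.2 and 31.5%. The eIF4 group took 19.7, 20.6 and 20.4% in spleen and 26.0 and 26.6% in tumor. Its genes differed: Eif4a1 took 1.74, 1.82 and 1.63% in spleen and 6.17 and 6.09% in tumor. Eif4a2 took 6.28, 6.34 and 6.28% in spleen and 3.91 and 4.10% in tumor, and the shares of Eif4g2 overlapped. The group of eIF1 and eIF1A took 2.34, 2.34 and 2.51% in spleen and 7.79 and 7.82% in tumor. For eIF5, eIF5A, eIF5B and eIF6 the shares were 2.95, 3.20 and 3.13% and 8.50 and 8.02%. In each of these groups the tissues did not overlap. By contrast the 14 eIF3 genes held 10.1, 10.01 and 10.1% in spleen and 9.55 and 9.92% in tumor, the 2 tumor values lying just below the 3 spleen values.

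**Figure D2:**
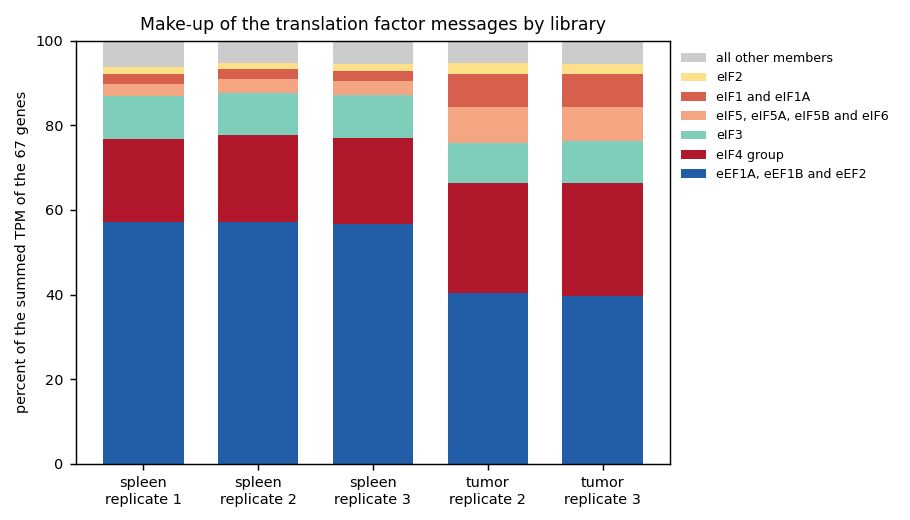
Stacked bars give the percent of the summed TPM of all 67 genes held by each factor group in each library. The elongation factors (bottom, blue) take 56.7 to 57.1% in the spleen libraries and 39.7 to 40.4% in the tumor libraries, where the bands of eIF4, eIF1 with eIF1A, and eIF5 with eIF6 are wider.

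All 4 genes of eIF1 and eIF1A, which keep the scanning ribosome open until the start codon is found, rose in tumor in the deposited scaling, with a median log2 change of 1.41. Of all genes tested, 40.9% were called higher in that scaling. Eif1 (chromosome 11, 100319885 to 100322096, GRCm38, GENCODE vM21, as all positions below unless RefSeq is named), the gene of the start codon gatekeeper, stood at 83.2, 109 and 104 TPM in spleen and 382 and 417 TPM in tumor. The 2 tumor libraries lay far above the 3 spleen libraries (log2 change 2.01, SE 0.21; limma adjusted p = 5.5e-12). Eif1a, an autosomal gene for eIF1A, stood at 8.50, 11.3 and 9.95 TPM in spleen and 53.6 and 64.7 TPM in tumor, the largest log2 change among the members (log2 change 2.46, SE 0.21; limma adjusted p = 1.5e-14). In spleen replicates 1 and 3 it lay below the olfactory level. The X-linked gene Eif1ax, which encodes nearly the same protein, stood at 8.03, 8.77 and 7.96 TPM in spleen and 11.9 and 15.0 TPM in tumor (log2 change 0.64, SE 0.21; limma adjusted p = 0.0073). This rise was not called without tumor replicate 3 (limma adjusted p = 0.16), and with equal totals its change was -0.21. Eif1b, a paralog of Eif1, stood at 11.5, 12.1 and 12.0 TPM in spleen and 19.98 and 23.4 TPM in tumor (log2 change 0.82, SE 0.21; limma adjusted p = 0.00064), and with equal totals its change was -0.061. In both pairs, Eif1a with Eif1ax and Eif1 with Eif1b, the gene named first had the larger log2 change. The TPM ratio of Eif1ax to Eif1a was 0.945, 0.775 and 0.801 in spleen and 0.222 and 0.232 in tumor. That of Eif1b to Eif1 was 0.138, 0.110 and 0.115 and 0.0523 and 0.0561. Reads of such near-identical genes could be split between them during quantification, so their values are uncertain.

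Within eIF2, the carrier of the initiator transfer RNA, the alpha and beta subunit genes rose and the gamma subunit genes were not called. Eif2s2, the beta subunit, stood at 20.7, 27.0 and 22.1 TPM in spleen and 58.1 and 56.9 TPM in tumor, with no overlap between the tissues (log2 change 1.28, SE 0.21; limma adjusted p = 7.1e-07). Eif2s1, the alpha subunit that stress kinases phosphorylate, stood at 20.7, 22.8 and 22.2 TPM in spleen and 43.3 and 43.4 TPM in tumor (log2 change 0.96, SE 0.21; limma adjusted p = 8.5e-05). Its change was -0.026 when the 20 most abundant genes did not count towards the totals. The X-linked gamma subunit gene Eif2s3x stood at 32.8, 42.8 and 41.2 TPM in spleen and 44.3 and 52.1 TPM in tumor, which was not called (log2 change 0.31, SE 0.21; limma adjusted p = 0.21). Its Y-linked copy Eif2s3y was at 4.02, 2.31 and 1.89 TPM in spleen and 1.36 and 2.16 TPM in tumor, below the olfactory background in every library, and shares much of its sequence with Eif2s3x. Of the 5 genes of eIF2B, the exchange factor that reloads eIF2 with GTP, Eif2b2 rose and the other 4 were not called. Eif2b2 stood at 5.69, 8.51 and 6.44 TPM in spleen and 13.2 and 11.9 TPM in tumor (log2 change 0.79, SE 0.21; limma adjusted p = 0.0011), and its change was -0.047 with equal totals. The largest mean in this complex was that of Eif2b5, the catalytic subunit, at 8.15, 10.8 and 9.14 TPM in spleen and 11.7 and 15.0 TPM in tumor (log2 change 0.47, SE 0.21; limma adjusted p = 0.051). Its tumor libraries lay above its spleen libraries. Of the alternative initiation factors, Eif2d fell and Eif2a was not called. Eif2d, the gene of a factor that can bring transfer RNA to the ribosome without GTP, stood at 11.5, 13.2 and 10.4 TPM in spleen and 6.11 and 6.87 TPM in tumor (log2 change -0.76, SE 0.21; limma adjusted p = 0.0015). Eif2a, whose product is distinct from the eIF2 complex, was at 98.1, 74.8 and 92.5 TPM in spleen and 53.8 and 85.5 TPM in tumor, and its tissues overlapped.

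The 14 genes of eIF3, the scaffold of the initiation complex on the small subunit, moved in both directions: 7 rose, 1 fell and 6 were not called. As deposited, 40.9% of all genes tested were called higher and 18.1% lower, and the difference was not tested. The median log2 change of the eIF3 genes was 0.36. The genes of the core subunits a, b and c were among those that rose. Eif3c stood at 24.1, 32.3 and 29.7 TPM in spleen and 57.1 and 56.1 TPM in tumor (log2 change 0.97, SE 0.21; limma adjusted p = 9.1e-05), Eif3a had a log2 change of 0.83 and Eif3b one of 0.81. The calls of Eif3a and Eif3b were lost without tumor replicate 3 (limma adjusted p = 0.076 and 0.052). Eif3d, which can itself contact the cap of some messages, rose by 0.64, a call lost without spleen replicate 3 or tumor replicate 3. Eif3k rose by 0.50, a call lost on leaving out any one library other than spleen replicate 2. The loosely bound subunit j is encoded in mouse by the paralogs Eif3j1 and Eif3j2, and both rose. Eif3j2 stood at 6.24, 6.66 and 7.45 TPM in spleen and 16.1 and 19.8 TPM in tumor (log2 change 1.28, SE 0.21; limma adjusted p = 5.7e-07). Eif3j1 stood at 4.18, 7.51 and 4.85 TPM in spleen and 10.4 and 12.98 TPM in tumor (log2 change 0.99, SE 0.22; limma adjusted p = 0.00012). Reads of this pair may be shared between them. With equal totals no eIF3 gene was called higher and 8 were called lower, against 21.0% and 51.3% of all genes under that scaling.

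Eif3e (chromosome 15, 43250058 to 43282719), a subunit gene and TOP message, fell and had the highest mean of the complex. It stood at 106, 136 and 119 TPM in spleen and 73.8 and 79.5 TPM in tumor (log2 change -0.64, SE 0.21; limma adjusted p = 0.0071). The 3 spleen libraries all lay above the 2 tumor libraries. This call was lost without spleen replicate 3 or either tumor replicate, at limma adjusted p of 0.057 to 0.13, while the change stayed between -0.69 and -0.59. The other 2 TOP messages of the complex were not called. Eif3f stood at 28.6, 38.2 and 34.1 TPM in spleen and 24.6 and 33.9 TPM in tumor. Eif3h stood at 54.4, 67.01 and 60.8 TPM in spleen and 53.9 and 66.2 TPM in tumor. Their tissues overlapped. Eif3g, Eif3i, Eif3l and Eif3m were not called either, with log2 changes of 0.23, -0.12, 0.17 and 0.025. Within one complex the genes thus spread over -0.64 to 1.28.

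In the eIF4 group, which binds and unwinds the capped end of the message, 6 of 11 genes rose and none fell in the deposited scaling. Of all genes tested, 40.9% were called higher and 18.1% lower in that scaling, and the difference was not tested. Eif4e (chromosome 3, 138526179 to 138559696), the gene of the cap-binding protein, stood at 30.6, 39.6 and 36.5 TPM in spleen and 169 and 182 TPM in tumor. Both tumor values lay far above the highest spleen value (log2 change 2.28, SE 0.21; limma adjusted p = 1.4e-13). The helicase gene Eif4a1 (chromosome 11, 69666936 to 69672423) stood at 82.6, 111 and 86.9 TPM in spleen and 371 and 405 TPM in tumor (log2 change 2.05, SE 0.21; limma adjusted p = 3.2e-12). Its close paralog Eif4a2 (chromosome 16, 23107444 to 23114136) stood at 298, 384 and 335 TPM in spleen and 235 and 273 TPM in tumor and was not called (log2 change -0.41, SE 0.20; limma adjusted p = 0.077). All spleen values of Eif4a2 lay above all tumor values, and without spleen replicate 1 its change of -0.50 was called lower (limma adjusted p = 0.013). Eif4a2 was thus the more abundant of the pair in every spleen library, and Eif4a1 in both tumor libraries. The TPM ratio of Eif4a1 to Eif4a2 was 0.277, 0.288 and 0.260 in spleen and 1.58 and 1.49 in tumor, a ratio within a library that no scaling can move.

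Other cap-binding paralogs also rose. Eif4e2, whose product competes with eIF4E for the cap and can repress translation, stood at 20.8, 21.2 and 19.1 TPM in spleen and 51.1 and 53.9 TPM in tumor (log2 change 1.33, SE 0.21; limma adjusted p = 2.6e-07). Relative to Eif4e it was lower in tumor, with a TPM ratio of 0.302 and 0.296 against 0.681, 0.534 and 0.523 in spleen. Eif4e3 stood at 8.50, 6.88 and 7.96 TPM in spleen and 12.5 and 20.04 TPM in tumor (log2 change 0.94, SE 0.21; limma adjusted p = 0.00018), a call lost without tumor replicate 3 (limma adjusted p = 0.063). Eif4h, a helper of the helicase, stood at 36.2, 54.2 and 45.2 TPM in spleen and 94.7 and 106 TPM in tumor (log2 change 1.15, SE 0.21; limma adjusted p = 7.1e-06), and its rise was not called on equal totals. Its fellow helper Eif4b, a TOP message, stood at 40.03, 58.4 and 42.4 TPM in spleen and 36.7 and 43.7 TPM in tumor and was not called (log2 change -0.20, SE 0.21; limma adjusted p = 0.42). The scaffold genes had smaller changes. Eif4g2, which has the highest mean of the group, stood at 367, 499 and 456 TPM in spleen and 511 and 593 TPM in tumor (log2 change 0.33, SE 0.20; limma adjusted p = 0.15). Eif4g1 stood at 32.9, 45.9 and 37.1 TPM in spleen and 44.3 and 55.7 TPM in tumor (log2 change 0.37, SE 0.21; limma adjusted p = 0.13). Eif4g3, which rose, stood at 13.6, 21.9 and 17.8 TPM in spleen and 23.4 and 28.4 TPM in tumor (log2 change 0.54, SE 0.22; limma adjusted p = 0.03). The call of Eif4g3 held in this scaling without spleen replicate 2 but not without any other library. Relative to each other Eif4g2 and Eif4g1 overlapped between the tissues, with a TPM ratio of 11.2, 10.9 and 12.3 in spleen and 11.5 and 10.7 in tumor. Eif4e1b, a germline form, was at 7.35, 7.73 and 5.60 TPM in spleen and 10.7 and 7.07 TPM in tumor and was not called.

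**Figure D3:**
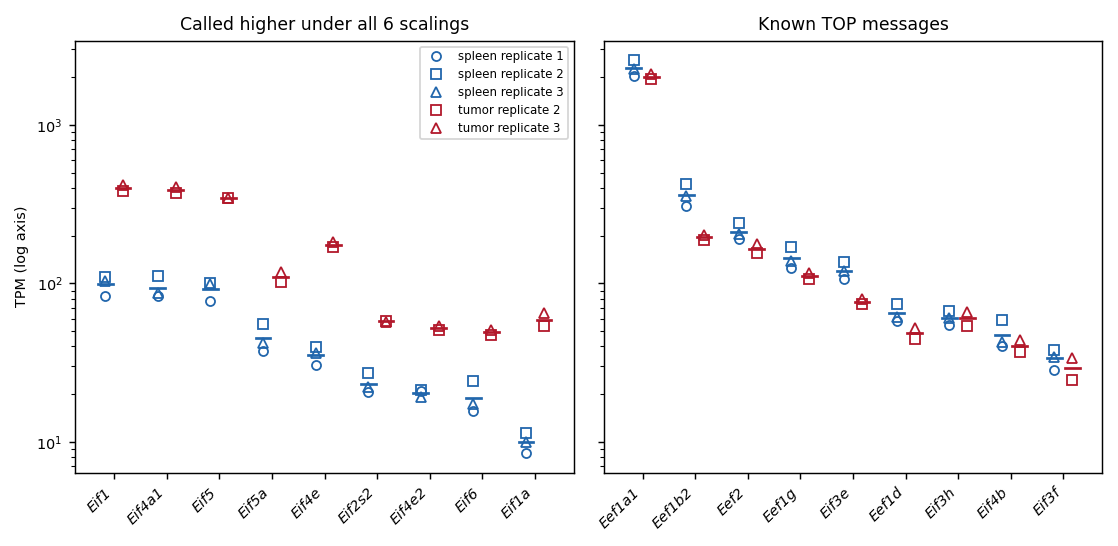
TPM in each library (log axis; circle, square and triangle for replicates 1, 2 and 3; spleen in blue, tumor in red; short lines are group means) for the 9 genes called higher under all 6 scalings and for the 9 known TOP messages. On the left every tumor value lies above every spleen value. On the right every tumor value lies below every spleen value for 5 genes (Eef1b2, Eef1d, Eef1g, Eef2 and Eif3e), and the tissues overlap for the other 4.

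Promoter windows of RefSeq (GRCm38.p6; 250 bases before to 50 after each annotated start) were found for 51 of the 67 genes. The E-box CACGTG, its own reverse complement and the site that MYC, MAX and MITF family factors are known to bind, was found in 13 of these 51 genes (25.5%), against 8.09% of all 27025 symbols with a window. It was held by 8 of 24 genes that rose, 1 of 5 that fell and 4 of 21 that were not called. The 27025 symbols are not limited to genes expressed in these libraries. A share among genes of like level or base composition was not computed, so the difference from 8.09% may not be particular to these factors. A match is a description of the letters and does not show binding. The windows of Eif4e, Eif4a1, Eif4h and Eif5a are shown because these genes rose by at least 2-fold and lay above the olfactory background in every library, which Eef1akmt4, the other gene with an E-box and such a rise, did not. That of Eef2 is shown because this gene was not called and holds the same letters. For Eif5a, 1 of its 2 sites is shown. Each runs 5′ to 3′ on the strand of the gene, with the E-box in capitals.
Eif4e (chr3:138527029-138527058, strand plus): tcgccagcgacCACGTGatcactttttttt
Eif4e (chr3:138527193-138527222, strand plus): gacacgtccgtCACGTGggcaggagccggc
Eif4a1 (chr11:69672594-69672623, strand minus): gatcgcctccgCACGTGtaaaggtgctggg
Eif4h (chr5:134639487-134639516, strand minus): ggccgccgcacCACGTGggccgcagagcgc
Eif5a (chr11:69921442-69921471, strand minus): aggggcggggtCACGTGtgtgcgtcatccg
Eef2 (chr10:81176577-81176606, strand plus): cccggcgccgtCACGTGacgcacccaaccg

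The 2 E-boxes of Eif4e begin 228 and 64 bases before the second of its 2 annotated starts, and the window of its first start holds none. The 250 bases before that second start are given whole, because Eif4e had the largest change among the genes above the olfactory background in every library, and E-boxes are again in capitals.
Eif4e (chr3:138527018-138527267, strand plus): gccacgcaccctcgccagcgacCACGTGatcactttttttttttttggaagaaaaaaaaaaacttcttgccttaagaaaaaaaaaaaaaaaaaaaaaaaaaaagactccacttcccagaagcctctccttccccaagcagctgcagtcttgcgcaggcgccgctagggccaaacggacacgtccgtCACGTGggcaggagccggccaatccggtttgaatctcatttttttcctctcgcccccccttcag

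The amino acid response letters TGATGNAA, searched on both strands, were found in 2 of the 51 genes, Eif2s3x and Eef2k, and in 3.97% of all 32851 windows.

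All tested genes of eIF5, eIF5A, eIF5B and eIF6 but Eif5a2 rose as deposited, where 40.9% of all genes tested were called higher. Eif5 (chromosome 12, 111538016 to 111546752), the gene of the factor that triggers GTP hydrolysis by eIF2, stood at 77.3, 101 and 99.1 TPM in spleen and 344 and 343 TPM in tumor. The 2 tumor libraries were nearly equal and lay far above spleen (log2 change 1.89, SE 0.21; limma adjusted p = 3.4e-11). Eif5a, the gene of the factor that carries the amino acid hypusine and helps the ribosome past difficult sequences, stood at 37.4, 55.6 and 41.8 TPM in spleen and 102 and 119 TPM in tumor (log2 change 1.29, SE 0.21; limma adjusted p = 8.3e-07). Eif6, which keeps the large subunit from joining too early, stood at 15.6, 24.1 and 17.5 TPM in spleen and 47.2 and 51.0 TPM in tumor (log2 change 1.34, SE 0.21; limma adjusted p = 4.2e-07). Eif5b, the GTPase of subunit joining, stood at 7.85, 10.5 and 6.55 TPM in spleen and 13.5 and 17.5 TPM in tumor (log2 change 0.84, SE 0.21; limma adjusted p = 0.00077), and its change was -0.015 with equal totals. The TPM ratio of Eif5b to Eif5 was 0.102, 0.104 and 0.0661 in spleen and 0.0394 and 0.0509 in tumor. Eif5a2, at 2.08, 2.69 and 1.93 TPM in spleen and 3.03 and 2.87 TPM in tumor, lay below the olfactory background in every library and was not called.

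The 5 tested elongation factor genes had negative log2 changes, and 1 of them fell as deposited, against 18.1% of all genes tested. Eef1a1 (chromosome 9, 78478449 to 78489151), the most abundant member, stood at 2033, 2549 and 2262 TPM in spleen and 1932 and 2092 TPM in tumor and was not called (log2 change -0.18, SE 0.19; limma adjusted p = 0.43). It ranked 3, 3 and 3 among all listed genes in the 3 spleen libraries and 15 and 12 in the tumor libraries. Processed copies of Eef1a1 in the genome could take some of its reads. Eef1b2 (chromosome 1, 63176825 to 63180486), the gene of the eEF1B exchange subunit, stood at 307, 426 and 356 TPM in spleen and 187 and 203 TPM in tumor. All tumor values lay below all spleen values, and the gene fell (log2 change -0.88, SE 0.20; limma adjusted p = 0.00025). Eef1d, another exchange subunit, stood at 58.1, 74.5 and 61.6 TPM in spleen and 44.4 and 52.7 TPM in tumor (log2 change -0.40, SE 0.21; limma adjusted p = 0.091). Eef1g, the structural subunit of eEF1B, stood at 125, 169.7 and 138 TPM in spleen and 107 and 116 TPM in tumor (log2 change -0.36, SE 0.21; limma adjusted p = 0.14). Eef2, the translocase, stood at 189.9, 240.0 and 205 TPM in spleen and 155 and 176 TPM in tumor (log2 change -0.35, SE 0.20; limma adjusted p = 0.14). None of these 3 was called, although their tissues did not overlap, and all 3 were called lower without spleen replicate 1 (limma adjusted p = 0.039, 0.038 and 0.046). The exchange subunits did not move in step: the TPM ratio of Eef1d to Eef1b2 was 0.189, 0.175 and 0.173 in spleen and 0.237 and 0.259 in tumor. Eef1a2, the form of muscle and neurons, was at 0.151, 0.0239 and 0.207 TPM in spleen and 0.0824 and 0.0259 TPM in tumor and was not tested.

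The known TOP messages among the 67 genes, which hold all tested elongation factors and some initiation factors, had lower log2 changes than most other factors. The 9 of them (Eef1a1, Eef1b2, Eef1d, Eef1g, Eef2, Eif3e, Eif3f, Eif3h and Eif4b) had a median log2 change of -0.35 (range -0.88 to -0.018). Of these 9, 2 fell and none rose, against 18.1% and 40.9% of all genes. The other 41 tested factor genes had a median of 0.64 (range -0.76 to 2.46), and 24 rose and 1 fell. The difference between these lists was not tested. Those tested all lay below the median of all genes in each scaling except that on T cell identity genes, where Eif3h lay just above it. Eef1a1 was not tested when the 20 most abundant genes did not count. With equal totals all 9 were called lower, and so they were by median ratios and by upper quartiles, where 51.3%, 30.2% and 49.0% of all genes were lower. Of the 8 tested when the 20 most abundant genes did not count, all were lower. The scaling to T cell identity called all 9 higher. The count of 2 falls became 5 without spleen replicate 1 and 1 without spleen replicate 3 or either tumor replicate. Their share of the summed factor TPM was 61.9, 62.0 and 61.5% in spleen and 43.6 and 43.1% in tumor. The 77 genes of cytosolic ribosomal proteins, the main class of TOP messages, had a median of -0.71. As deposited 57 of them were called lower and 2 higher, against the same 18.1% and 40.9%. The list of known TOP messages came from general knowledge, and the annotated starts do not always show the tract. It was marked among the members only. Genes outside them, such as Pabpc1, which was called higher, and Rack1, which was called lower, were not sorted by it.

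From the annotated start, a C followed by C or T for at least 5 bases was found in 2 members, Eif3f and Eif2s3x, and in 2.51% of all windows. Only 5 of the 9 known TOP messages had a window. The stretches around the longest run of C and T, in capitals, between 20 bases before and 50 after the start are shown for these 2 genes and for Eef1a1 and Eef2, to show how far the run can lie from the annotated start.
Eif3f (chr7:108934404-108934433, strand plus): ttctaggCTCTCTCTCTTTCTCggcaagat
Eif2s3x (chrX:94212634-94212663, strand minus): ccgagcaTTTTCCTTTTCTCTCCgagcaag
Eef1a1 (chr9:78481710-78481739, strand minus): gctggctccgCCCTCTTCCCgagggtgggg
Eef2 (chr10:81176634-81176663, strand plus): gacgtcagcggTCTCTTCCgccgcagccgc

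In Eef2 the run begins 14 bases after the annotated start. In the other 3 it spans the annotated start. Whether any of these runs is the TOP tract of its message was not tested.

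The genes of eIF4E-binding proteins, which hold eIF4E away from eIF4G until mTORC1 phosphorylates them, did not move together: Eif4ebp1 rose, Eif4ebp2 fell and the other 2 genes of the group were not called. Eif4ebp1 (chromosome 8, 27260329 to 27276674) stood at 14.7, 12.2 and 14.1 TPM in spleen and 35.5 and 35.1 TPM in tumor (log2 change 1.31, SE 0.21; limma adjusted p = 3.6e-07). Its rise was not called with equal totals or when the 20 most abundant genes did not count. Eif4ebp2 (chromosome 10, 61428491 to 61452661) stood at 7.44, 14.2 and 8.74 TPM in spleen and 4.78 and 4.98 TPM in tumor (log2 change -0.87, SE 0.22; limma adjusted p = 0.00066). It lay above the olfactory background in 1 library only. Within a library the TPM ratio of Eif4ebp1 to Eif4ebp2 was 1.98, 0.864 and 1.62 in spleen and 7.42 and 7.05 in tumor. Eif4ebp3 stood at 2.00, 2.91 and 2.19 TPM in spleen and 2.25 and 3.89 TPM in tumor. Eif4enif1, whose product carries eIF4E into the nucleus, stood at 21.3, 25.5 and 21.6 TPM in spleen and 24.1 and 28.7 TPM in tumor. The tissues overlapped in both.

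Of the 3 kinases of eIF2 alpha counted here, each of which slows initiation under a different stress, Eif2ak1 and Eif2ak4 rose and Eif2ak3 was not called. Eif2ak1, the heme-regulated kinase HRI, stood at 8.40, 9.57 and 8.56 TPM in spleen and 11.9 and 13.7 TPM in tumor (log2 change 0.49, SE 0.21; limma adjusted p = 0.038). Eif2ak4, the amino acid sensor GCN2, stood at 2.25, 4.50 and 3.03 TPM in spleen and 4.72 and 5.71 TPM in tumor (log2 change 0.58, SE 0.22; limma adjusted p = 0.022). The calls were not firm: that of Eif2ak1 was lost on leaving out any library but spleen replicate 2, and that of Eif2ak4 without spleen replicate 1 or 3 or tumor replicate 3. Under equal totals their changes were -0.36 and -0.16. Eif2ak3, the endoplasmic reticulum kinase PERK, stood at 7.15, 7.45 and 6.93 TPM in spleen and 5.84 and 6.62 TPM in tumor (log2 change -0.18, SE 0.20; limma adjusted p = 0.46). Eif2ak3 and Eif2ak4 lay below the olfactory background in every library.

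The elongation brake Eef2k, the kinase gene whose product inactivates eEF2, fell. It stood at 2.79, 2.46 and 4.05 TPM in spleen and 0.990 and 1.14 TPM in tumor (log2 change -0.97, SE 0.22; limma adjusted p = 0.00017), below the olfactory background throughout. Eef2kmt, a methyltransferase of eEF2, stood at 10.1, 10.2 and 8.95 TPM in spleen and 5.38 and 7.56 TPM in tumor and fell (log2 change -0.54, SE 0.21; limma adjusted p = 0.023), a call that was lost without spleen replicate 1 or 3 or tumor replicate 2. Of the 4 methyltransferases of eEF1A, Eef1akmt4 rose, at 1.82, 2.58 and 1.47 TPM in spleen and 4.34 and 5.94 TPM in tumor (log2 change 1.06, SE 0.22; limma adjusted p = 4.5e-05), also below the background. Eef1akmt2, the most abundant of them, stood at 15.7, 19.6 and 14.3 TPM in spleen and 18.0 and 14.8 TPM in tumor and was not called. Eef1akmt1 was not called either and Eef1akmt3 was not tested. Among the genes with other roles, Eif4a3, the helicase of the exon junction complex that is left on spliced messages, rose. It stood at 27.9, 45.8 and 35.6 TPM in spleen and 74.1 and 72.3 TPM in tumor (log2 change 1.02, SE 0.22; limma adjusted p = 6.8e-05), and its rise was not called with equal totals. Eif1ad, which shares a domain with eIF1A, and Eef1e1, a part of the complex of aminoacyl transfer RNA synthetases, were not called.

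Within-library ratios were set up for 16 pairs of paralogs or partners, and 15 had both genes at a mean of at least 1 TPM. In 13 of the 15 the tissues did not overlap, judged on log2(TPM + 1). With 3 libraries against 2, an exact two-sided permutation test can give no p below 0.2, so these ratios are descriptions (p = 0.2 for each of the 13, 0.231 after adjustment over the 15). On the log2(TPM + 1) scale the largest differences, tumor minus spleen, were 2.47 for Eif4a1 to Eif4a2, 2.18 for Eif4ebp1 to Eif4ebp2 and -1.83 for Eif1ax to Eif1a. The 2 pairs whose tissues overlapped were Eif4g2 to Eif4g1 (-0.035) and Eif2ak1 to Eif2ak4 (-0.086), with p = 0.8 each in the same exact permutation test. Differences without overlap also included -1.34 for Eif4e3 to Eif4e, -0.996 for Eif5a2 to Eif5a, -0.75 for Eif2ak3 to Eif2ak4, -0.72 for Eif2s3y to Eif2s3x, 0.29 for Eif3j2 to Eif3j1 and 0.17 for Eif4g3 to Eif4g1. Without the added 1, the TPM ratio of Eif3j2 to Eif3j1 did overlap, at 1.49, 0.886 and 1.54 in spleen and 1.55 and 1.53 in tumor. With a pseudocount of 10 the value for Eif4ebp1 to Eif4ebp2 was 1.36 and that for Eif2ak3 to Eif2ak4 was -0.28. The share of all tested genes whose own levels did not overlap was 70.4%.

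Other genes that act with these factors moved in both directions. Of 44 such genes listed by role 43 were tested, and 19 rose and 8 fell, close to the 40.9% and 18.1% of all genes. Their median log2 change was 0.33. Among genes of termination and recycling 4 of 8 rose and none fell. Etf1, the release factor that reads stop codons, stood at 16.5, 19.6 and 18.0 TPM in spleen and 96.7 and 98.3 TPM in tumor (log2 change 2.37, SE 0.21; limma adjusted p = 3.1e-14). Of 12 genes of mTORC1 and related kinases 5 rose and 1 fell. Pdcd4, an inhibitor of eIF4A, stood at 62.1, 94.9 and 66.9 TPM in spleen and 9.69 and 9.15 TPM in tumor and had the largest fall (log2 change -2.84, SE 0.21; limma adjusted p = 2.4e-16). It lay far below spleen in both tumor libraries. Ppp1r15a, the stress-induced subunit of the eIF2 alpha phosphatase, stood at 7.00, 3.49 and 7.88 TPM in spleen and 107 and 104 TPM in tumor (log2 change 3.96, SE 0.23; limma adjusted p = 9.4e-21), and 3 of 5 genes of its list rose. Of the 5 poly(A)-binding proteins and partners 2 rose and 2 fell, and Pabpc1 stood at 102, 186 and 120.4 TPM in spleen and 202 and 236 TPM in tumor (log2 change 0.72, SE 0.22; limma adjusted p = 0.0043). Of 8 genes that modify eIF5A and eEF2, 3 rose and 4 fell. The hypusine enzymes Dhps and Dohh rose by 0.71 and 0.69 on the log2 scale. Of the diphthamide genes, which modify eEF2, Dph3 stood at 7.52, 10.2 and 6.60 TPM in spleen and 22.7 and 28.5 TPM in tumor (log2 change 1.56, SE 0.21; limma adjusted p = 1.6e-08). Dph2, Dph5, Dph6 and Dph7 changed by -0.93, -1.19, -1.06 and -1.09 and were called lower. Dohh, Dph2 and Dph7 lay below the olfactory background in every library, and Dph6 lay above it in 1 library only. Ppp1r15a, Dph3 and Impact lay below it in the spleen libraries and above it in the tumor libraries, so the sizes of their rises are uncertain. Among 5 genes of helicases and ABC proteins 2 rose and 1 fell, with the helicase gene Ddx3x at 55.1, 79.2 and 62.0 TPM in spleen and 132 and 134 TPM in tumor (log2 change 1.03, SE 0.21; limma adjusted p = 3.8e-05). Etf1, Ppp1r15a and Dph3 rose and Pdcd4 fell under all 6 scalings, whereas the rises of Pabpc1, Ddx3x, Dhps and Dohh were not called with equal totals. Rheb, Mknk1, Mknk2, Ppp1r15b and Impact, of the same lists, also rose under all 6. With equal totals 8 of the 43 were higher and 24 lower, near the 21.0% and 51.3% of all genes. Scaled to T cell identity 42 were higher, against 94.6% of all genes, and Pdcd4 alone was lower.

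The plot of the 6 scalings shows which of these directions rest on the scaling. With equal totals 9 members were called higher and 32 lower, against 21.0% and 51.3% of all genes. By upper quartiles 12 were higher and 32 lower, against 23.7% and 49.0%. When the 20 most abundant genes did not count, 9 were higher and 37 lower, against 20.4% and 56.4%. By median ratios 23 were higher and 19 lower, against 33.2% and 30.2%. Scaled on T cell identity genes 64 were higher and none lower, against 94.6% and 0.909%.

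**Figure D4:**
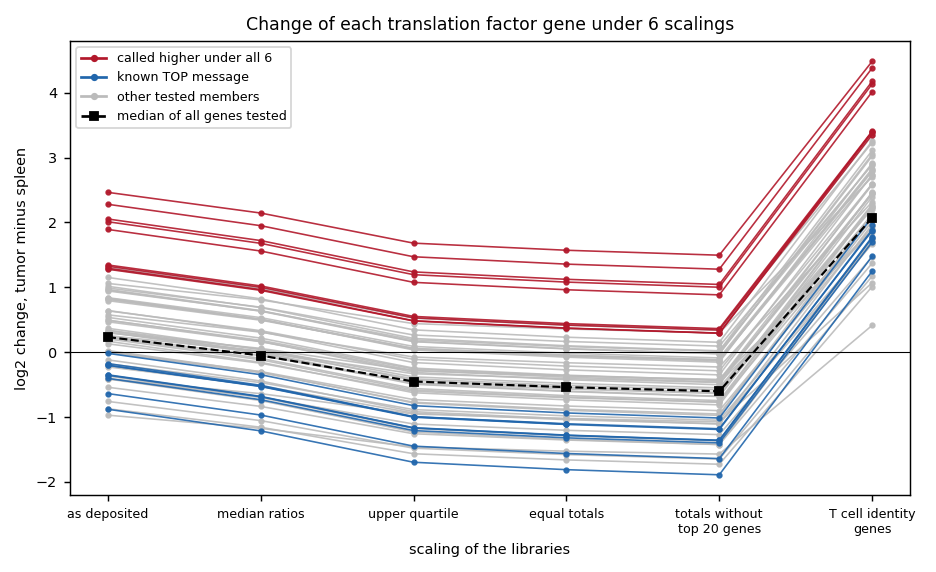
Log2 change (tumor minus spleen) of each of the 65 tested genes under 6 scalings of the libraries. Each line is 1 gene: red for the 9 genes called higher under all 6, blue for the 9 known TOP messages, grey for the others. The black dashed line is the median of all genes tested. The lines shift together, from a median of all genes of 0.23 as deposited to -0.60 and 2.07 at the extremes, and the red lines stay above 0 throughout. Eef1a1 has no point with the top 20 genes left out, being one of them.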

How the data were processed

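Per the labels' protocols, libraries were made from total RNA of CD4+ T cells with a stranded kit that removes ribosomal RNA. The authors deposited 1 file of TPM values per library, by gene symbol. No header names the unit. It was inferred from values that are not whole and from kallisto, a transcript quantifier, being listed in the submitters' processing notes together with DESeq2 and mm10, without versions or roles. TPM keep no read depth, so no counting error is given. The listed genes held 26.9% to 59.6% of a full TPM total per library.

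The members and lists were chosen with earlier results of these data known. Tumor was compared with spleen by limma 3.58.1 (R 4.3.3) on log2(TPM + 1), fitted with the trend option and no covariate to the 12979 genes whose mean reached 1 TPM. Two-sided p-values were adjusted by Benjamini and Hochberg's method over all these genes and called under 0.05. This scale understates changes of low genes. There were 3 residual and 44.1 prior degrees of freedom, so the spread behind each p-value came mostly from all genes together. The fit was tested on simulated data.

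Members named with values in each library were those with the highest mean, the largest called rise and the largest called fall of each complex, the ratio pairs, the eIF4E-binding proteins, the kinases and the TOP messages. For the lists of other genes, the called gene with the largest change was named; the eIF3 subunits, the hypusine and diphthamide genes and some others were named after their values were seen. Positions are from GENCODE vM21 (GRCm38) and promoter windows from RefSeq. Alternatives were 5 other scalings, other filters, pseudocounts and thresholds, no trend, a replicate block and each library left out.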

Additional observations from a re-analysis of the deposited data

How the results depend on the processing

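Counts of called members moved with the scaling. Members called higher numbered 29 as deposited, 23 by median ratios, 9 with equal totals, 12 by upper quartiles, 9 when the 20 most abundant genes did not count towards the totals and 64 scaled to T cell identity. Members called lower numbered 6 as deposited, 19 by median ratios, 32 with equal totals, 32 by upper quartiles, 37 when the 20 most abundant genes did not count and 0 scaled to T cell identity. With a filter at a mean of 10 TPM 2 were lower, with fewer members tested. The median log2 change of 0.33 became 0.041 by median ratios, -0.48 with equal totals, -0.38 by upper quartiles, -0.53 when the 20 did not count and 2.32 scaled to T cell identity. Leaving out 1 library gave 20 to 33 members higher, 4 to 9 lower and a median of 0.27 to 0.53, a lone tumor library being assumed to vary like the spleen libraries. Nothing in the labels says that replicate numbers pair the samples. Across genes, deviations from the group mean correlated at 0.20 between libraries numbered 2 and 0.066 between those numbered 3. Between spleen replicate 1 and tumor replicate 3, which share no number, the value was 0.19. The deviations of the 2 tumor libraries mirror each other, so these values cannot show whether samples are paired. With the replicate block 25 members were higher, 5 lower and the median 0.27. Only 1 library is numbered 1, so the block takes up spleen replicate 1. The members' log2 changes with it were those without spleen replicate 1, so the block is no separate check of them. Other pseudocounts, no filter, the threshold of 0.01 and no trend left both counts within 1.5 times. Outside the scalings, 14 changes of sign were seen, all in genes called in neither fit. For the ratios, 99 of 105 alternative values stayed within 1 SD, and the 6 others, all with a pseudocount of 10, kept their sign. Depth is unknown and sets no stated limit.

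Each scaling multiplies all genes of a library by 1 factor and so shifts their changes together. Median ratios turned the sign of 9 members, equal totals and upper quartiles of 5 and the totals without the top 20 of 2 that were called in neither fit. The members below turned sign and were called in at least 1 of the fits. With equal totals the log2 changes were -0.70 for Eef1akmt1, -0.48 for Eif1ad, -0.21 for Eif1ax, -0.061 for Eif1b, -0.36 for Eif2ak1, -0.16 for Eif2ak4, -0.83 for Eif2b1, -0.047 for Eif2b2, -0.61 for Eif2s3x, -0.077 for Eif3a, -0.046 for Eif3b, -0.27 for Eif3d, -0.67 for Eif3g, -0.42 for Eif3k, -0.74 for Eif3l, -0.90 for Eif3m, -0.69 for Eif4enif1, -0.55 for Eif4g1, -0.60 for Eif4g2, -0.35 for Eif4g3 and -0.015 for Eif5b. By upper quartiles they were -0.60 for Eef1akmt1, -0.38 for Eif1ad, -0.11 for Eif1ax, -0.26 for Eif2ak1, -0.075 for Eif2ak4, -0.73 for Eif2b1, -0.49 for Eif2s3x, -0.16 for Eif3d, -0.56 for Eif3g, -0.31 for Eif3k, -0.63 for Eif3l, -0.78 for Eif3m, -0.58 for Eif4enif1, -0.43 for Eif4g1, -0.49 for Eif4g2 and -0.25 for Eif4g3. When the 20 most abundant genes did not count they were -0.77 for Eef1akmt1, -0.64 for Eef1e1, -0.55 for Eif1ad, -0.29 for Eif1ax, -0.14 for Eif1b, -0.44 for Eif2ak1, -0.23 for Eif2ak4, -0.90 for Eif2b1, -0.12 for Eif2b2, -0.46 for Eif2b5, -0.026 for Eif2s1, -0.68 for Eif2s3x, -0.15 for Eif3a, -0.12 for Eif3b, -0.023 for Eif3c, -0.35 for Eif3d, -0.75 for Eif3g, -0.50 for Eif3k, -0.81 for Eif3l, -0.97 for Eif3m, -0.58 for Eif4e1b, -0.77 for Eif4enif1, -0.62 for Eif4g1, -0.68 for Eif4g2, -0.43 for Eif4g3 and -0.089 for Eif5b. Scaled to T cell identity they were 1.96 for Eef1a1, 2.02 for Eef1akmt2, 1.25 for Eef1b2, 1.70 for Eef1d, 1.76 for Eef1g, 1.78 for Eef2, 0.41 for Eef2k, 1.37 for Eef2kmt, 1.74 for Eif2a, 1.70 for Eif2ak3, 1.47 for Eif2b3, 1.67 for Eif2b4, 1.17 for Eif2d, 1.07 for Eif2s3y, 1.48 for Eif3e, 1.87 for Eif3f, 2.09 for Eif3h, 1.97 for Eif3i, 1.72 for Eif4a2, 1.89 for Eif4b and 1.01 for Eif4ebp2.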
